A study of Caenorhabditis elegans with 2 samples.

Results

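Genes that encode subunits of the histone H3 lysine 4 (H3K4) methyltransferase complexes of Caenorhabditis elegans were examined for regions precipitated with HMG-20, an HMG box protein. They were set-16, set-2, wdr-5.1, rbbp-5, ash-2, dpy-30, cfp-1 and utx-1, which are 8 of 19973 protein-coding genes of the nucleus. For each gene, every region of the authors' ranked list was taken whose summit lay between 1000 bp upstream of a 5′ end and the 3′ end of the gene, and this gave 45 of 59116 ranked regions. The genes were selected on the signals, scores and list memberships given below, which were already known from these lists, so all values are descriptions and none was tested.

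Both samples were chromatin immunoprecipitations with an antibody against GFP, from worms of strain RW12240. This strain carries the CRISPR insertion st12240, which adds TY1, EGFP and 3xFLAG tags to hmg-20 on chromosome I. Whole young adults were collected at 64 hours, after synchronisation by bleaching and starvation at the first larval stage, and their chromatin was sheared by sonication. There was 1 group with 2 biological replicates, no untagged or input library was analysed here, and the tissues of the worm were not separated. The lists hold no read totals, so the depth is unknown. A region gives precipitated DNA and not the expression of a gene.

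Methylation of H3K4 marks the promoters and enhancers of active genes. In the complex named COMPASS, SET-2 is the catalytic subunit and carries out much of the H3K4 trimethylation of the worm, while CFP-1 is a CXXC zinc finger protein that links the complex to DNA rich in CG dinucleotides. WDR-5.1, RBBP-5, ASH-2 and DPY-30 form a core that SET-2 shares with SET-16, the worm relative of mammalian MLL3 and MLL4. UTX-1 is a demethylase of histone H3 lysine 27 that works with the SET-16 complex.

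The sequences under the strongest region of set-16, set-2 and wdr-5.1 are shown because these are the members with the highest scores, and because the first of them is the member region found in all 4 thresholded lists. They were read from the WBcel235 (ce11) genome at chrIII:13643616-13643871 on the plus strand, chrIII:4930320-4930575 on the minus strand and chrIII:3705967-3706222 on the plus strand, each in the direction of its gene. The first pair lies upstream of the genes and the last at a coding exon of wdr-5.1. Capitals mark matches of GAGAGA, TTTNNCGC and GAGACGCAG on either strand. In set-16 the GAGAGA match overlaps the first of 2 GAGACGCAG matches, in set-2 both matches of TTTNNCGC overlap, and the TCTCTC in wdr-5.1 is GAGAGA on the other strand. GAGACGCAG was chosen after the set-16 sequence had been seen.
set-16: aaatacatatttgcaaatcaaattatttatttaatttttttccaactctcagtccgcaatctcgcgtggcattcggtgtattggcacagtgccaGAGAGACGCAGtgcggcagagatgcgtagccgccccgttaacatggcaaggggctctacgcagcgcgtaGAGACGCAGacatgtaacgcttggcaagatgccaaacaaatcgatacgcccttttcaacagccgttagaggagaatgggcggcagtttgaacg
set-2: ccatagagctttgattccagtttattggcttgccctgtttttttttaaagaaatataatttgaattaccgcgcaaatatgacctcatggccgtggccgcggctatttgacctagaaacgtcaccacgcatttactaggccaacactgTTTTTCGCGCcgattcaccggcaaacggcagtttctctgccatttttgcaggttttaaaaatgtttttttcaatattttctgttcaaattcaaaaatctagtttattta
wdr-5.1: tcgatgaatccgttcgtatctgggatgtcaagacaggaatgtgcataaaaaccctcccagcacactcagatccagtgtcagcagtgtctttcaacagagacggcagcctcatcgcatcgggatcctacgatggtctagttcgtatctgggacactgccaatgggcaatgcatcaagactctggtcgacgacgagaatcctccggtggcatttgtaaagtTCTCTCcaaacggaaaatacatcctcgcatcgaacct

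The set-16 gene (WBGene00011729; chromosome III, 13643916 to 13656637, plus strand), which encodes the MLL-like methyltransferase, held the strongest HMG-20 region of the 8 genes. Its summit was 172 bp upstream of the gene, in the first sequence shown above. The pooled signal, which is the authors' peak height on a scale the files do not state, was 167.6. The replicate signals were 89.8 in the first replicate column of the ranked list and 81.1 in the second (85.4 ± 6.17, SD, n = 2). Both were thus far above the replicate signals of any other member region, of which the highest was 29.2. The score, which is a scaled irreproducible discovery rate (IDR) with a ceiling of 1000, was 1000, and the IDR was 1.8e-05.

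The set-16 region was in the conservative list, in the other thresholded list of the series and in the thresholded list of each replicate. Replicate 1's own list placed its summit 200 bp upstream of set-16 and replicate 2's own list 169 bp upstream, each with a score of 1000. By pooled signal it was number 74 of the 979 nuclear regions of the conservative list, whose median was 76.8, and number 12 of the 159 on chromosome III. Among protein-coding genes with a ranked region, 62 had a strongest region with a higher signal than set-16.

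The summit stood between divergent genes and was about as near to one as to the other. It lay 174 bp upstream of drr-2 (WBGene00011730; chromosome III, 13642420 to 13643570, minus strand), which encodes an RNA-binding protein related to the translation factor eIF4H, and 345 bp separate the 2 genes. The lists cannot assign the region to either gene.

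The other 14 ranked regions of set-16 were much weaker, with pooled signals of 4.60 to 38.7 and scores of 27 to 232. The next highest, in a coding exon 7644 bp downstream of the 5′ end, had a signal of 38.7 and replicate signals of 19.8 and 16.7, so the promoter region was 4.33 times as high by pooled signal. Of these 15 regions of set-16, 8 had the score of 27, the lowest in the ranked list, which stands for an IDR of 0.858. The region with the signal of 4.60 lay 903 bp upstream of set-16 and within drr-2, and the rest of the 14 lay in the body of set-16. That body therefore held many regions but none near the level of the divergent promoter.

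The set-2 gene (WBGene00004782; chromosome III, 4922427 to 4930204, minus strand), the catalytic subunit of COMPASS, had the second strongest region, the second sequence shown above. Its summit was 244 bp upstream of the gene, in the interval between set-2 and its neighbour C26E6.12 on the same strand. The pooled signal was 51.4, the replicate signals were 21.6 and 29.2 (25.4 ± 5.37, SD, n = 2), and the score of 563 stands for an IDR of 0.0439. This score passes an IDR of 0.05, a score of 540, but not the authors' threshold of 830, an IDR of 0.01. The replicates' own lists gave it scores of 33 in replicate 1 and 415 in replicate 2, and the other ranked list of the series gave it 639.

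The other 9 regions of set-2 had signals of 2.90 to 35.2 and scores of 27 to 226, and all lay within the gene. The one with the score of 226, in a coding exon, had a pooled signal of 34.8 and replicate signals of 26.3 and 15.4. In another coding exon the pooled signal was 35.2, but the replicate signals were 24.1 and 9.73 and the score was 59. At both of these regions the first replicate was the higher, whereas at the promoter the second was.

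**Figure D1:**
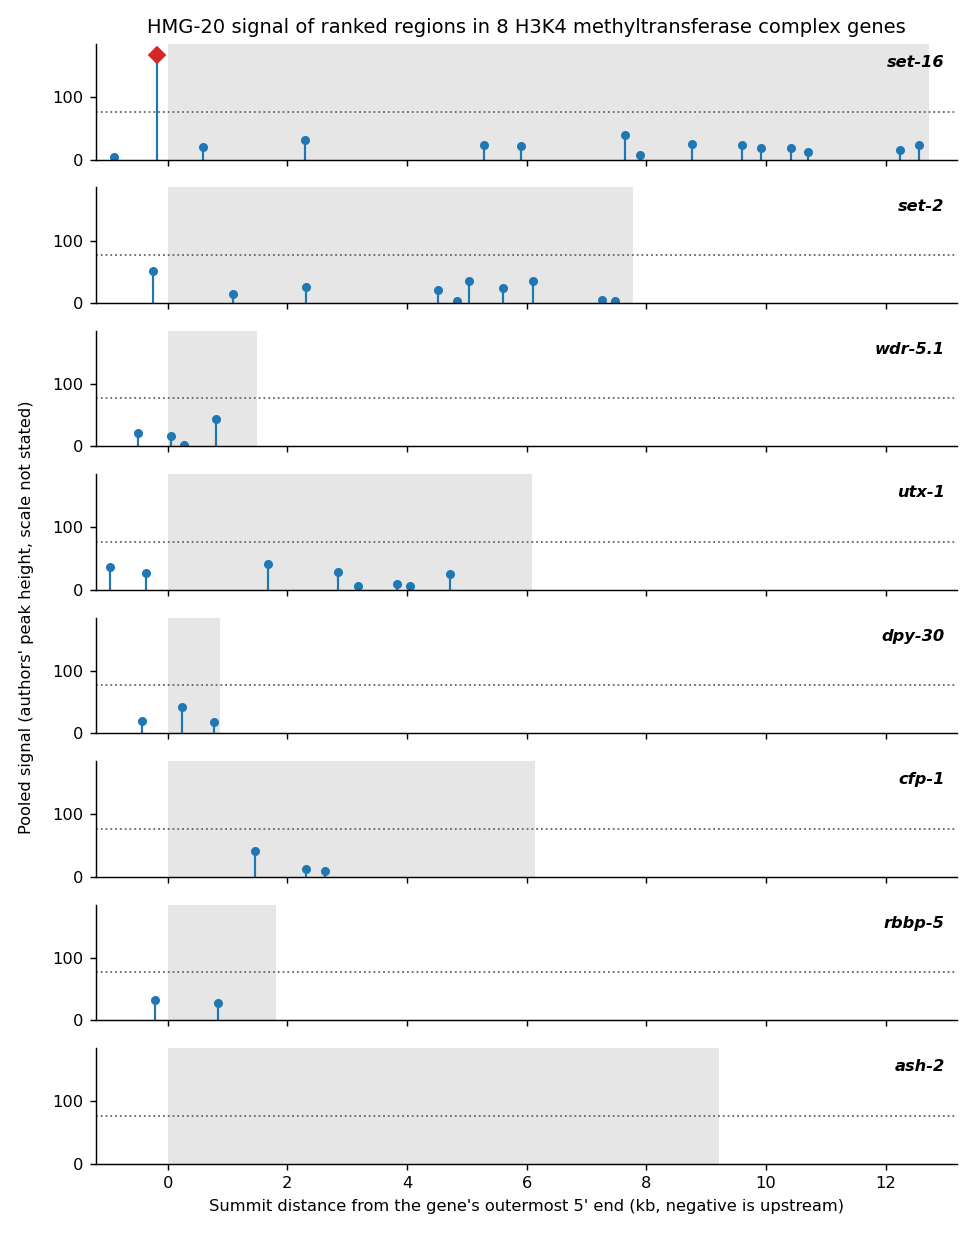
Pooled HMG-20 signal of the 45 ranked regions (vertical axis, authors' peak height on a scale not stated) by the distance of the summit from the outermost 5′ end of each gene (horizontal axis, kb). Grey boxes are the genes, the dotted line is the median of 76.8 of the conservative list, and the red diamond is the conservative region of set-16, the member region above that line.

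In the shared core, wdr-5.1 (WBGene00006474; chromosome III, 3705285 to 3706784, plus strand), a WD40 repeat protein, had its strongest region inside the gene. The summit lay in a coding exon 810 bp downstream of the 5′ end, in the last sequence shown above, and 791 bp upstream of the next gene, dph-1. The pooled signal was 43.3 and the replicate signals were 21.8 and 23.1 (22.4 ± 0.912, SD, n = 2), with a score of 461 and an IDR of 0.0775. The other 3 regions of the gene were all at the score of 27 and had signals of 2.85 to 21.6.

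The dpy-30 gene (WBGene00001088; chromosome V, 12191519 to 12192385, plus strand), also needed for dosage compensation of the X chromosome, had its strongest region in a coding exon 242 bp downstream of its 5′ end. That summit was also 512 bp upstream of the next gene, rnp-1. The pooled signal was 42.4, the replicate signals were 19.8 and 21.1 (20.5 ± 0.896, SD, n = 2), and the score was 342, an IDR of 0.149. A second region lay within rnp-1, which encodes an RNA-binding protein, 14 bp downstream of its nearest transcript 5′ end. It had a signal of 17.7 and a score of 95. The last, 429 bp upstream of dpy-30, had a signal of 20.2 and a score of 27.

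The strongest region of rbbp-5 (WBGene00017683; chromosome II, 6097830 to 6099645, plus strand), another WD40 repeat protein, was again at a divergent promoter. It lay 210 bp upstream of rbbp-5 and 23 bp upstream of tpp-2 (WBGene00017686; chromosome II, 6092746 to 6097597, minus strand), which encodes tripeptidyl peptidase II, and their 5′ ends are 233 bp apart. The pooled signal was 31.8, the replicate signals were 19.1 and 14.8 (16.9 ± 3.08, SD, n = 2), and the score was 171. The set-16 signal was 5.28 times as high, so a shared divergent arrangement went with very different levels. The other region, in a coding exon 839 bp downstream, had a signal of 27.3 and a score of 70. Replicate 1's own list held 0 regions in the rbbp-5 window and replicate 2's held 4.

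The ash-2 gene (WBGene00012458; chromosome II, 11979838 to 11989050, plus strand), the remaining core subunit, held 0 ranked regions although its window of 10213 bp was the second longest of the 8. Among protein-coding genes with a window at least as long, 111 of 1185 (9.37%) had no ranked region, against 25.4% of all protein-coding genes. Absence from this list was not absence from every list. Replicate 1's own list had a region 502 bp downstream of the ash-2 5′ end, in an untranslated exon (chromosome II, 11980215 to 11980464), with a signal of 36.2 and a score of 621, and another 858 bp upstream with a signal of 19.3 and a score of 34. Replicate 2's own list had 0 regions in that window. The other ranked list of the series had 1, at 854 bp upstream, with a signal of 33.1 and a score of 59. The regions at 858 and 854 bp upstream lie within Y17G7B.20 (chromosome II, 11977776 to 11979844, minus strand), a divergent gene whose 5′ end overlaps that of ash-2. No region of ash-2 was in both replicates' own lists.

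The cfp-1 gene (WBGene00009924; chromosome IV, 14077435 to 14083568, plus strand), whose product links COMPASS to CG-rich DNA, had 3 regions. The strongest lay in a coding exon 1462 bp downstream of the outermost 5′ end and 176 bp inside another of the 8 annotated cfp-1 transcripts. Its pooled signal was 41.6, its replicate signals were 15.6 and 22.6 (19.1 ± 4.97, SD, n = 2), and its score was 195. The other regions, in introns, had signals of 11.9 and 9.45 and share replicate signals of 16.1 and 7.56, since 1 peak of each replicate was matched to both.

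The utx-1 gene (WBGene00017046; chromosome X, 8557146 to 8563238, plus strand), the histone H3 lysine 27 demethylase, had 8 regions. The strongest, in an intron 1684 bp downstream of the 5′ end, had a pooled signal of 40.8, replicate signals of 19.7 and 21.6 (20.7 ± 1.36, SD, n = 2) and a score of 348. The second, with a signal of 36.8, replicate signals of 18.5 and 23.6 and a score of 327, lay 963 bp upstream of utx-1 and within the neighbouring gene dhhc-14. The region 356 bp upstream had a signal of 26.3, replicate signals of 19.9 and 14.7 and a score of 175. The other 5 had signals of 5.64 to 28.2 and scores of 27 to 164, and lay in exons that encode protein.

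Only set-16 among the 8 members was in a thresholded list, and the background of such calls was low. Over all 19973 protein-coding genes, 848 (4.25%) had a conservative summit in the same window, and 864 (4.33%) had one of the other thresholded list. For the thresholded list of replicate 1 the figure was 458 genes (2.29%) and for that of replicate 2 it was 412 (2.06%). At an IDR of 0.05 in the ranked list, 2 members were called, set-16 and set-2, against 1459 protein-coding genes (7.3%). A ranked region of any score was found in 7 of the 8 members, against 14890 protein-coding genes (74.6%). These counts were used in choosing the members, so nothing is read from them.

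Scores fell short of the threshold by a wide margin outside set-16. Just inside the score of 830 was set-16 at 1000, and the next below it was set-2 at 563. At the edge of the window, the last regions inside were at 963 bp upstream of utx-1 and 903 bp upstream of set-16, where the signal was 4.60. Just outside were regions at 1102 bp upstream of set-16, with a signal of 29.7, and at 1151 bp upstream of cfp-1, with a signal of 34.5. No region near the edge came close to the conservative list.

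Ranked against other genes, the strongest region of set-16 was at the 99.6th percentile of the 14890 protein-coding genes with a ranked region. The set-2 region was at the 91.0th, wdr-5.1 at the 83.3rd, dpy-30 at the 81.8th, cfp-1 at the 80.6th, utx-1 at the 79.2nd and rbbp-5 at the 54.1st percentile. The replicate means of wdr-5.1, dpy-30, cfp-1 and utx-1, between 19.1 and 22.4, lay within the replicate SD of 4.97 at cfp-1, so no order among them is read. Long genes have more chances of a strong region, and the median window of the 8 members was 7113.5 bp, against 3027 bp for all protein-coding genes. When regions were restricted to those from 1000 bp upstream to 200 bp downstream of a 5′ end, the percentile among the 10906 protein-coding genes with such a region was 99.5 for set-16, 91.6 for set-2, 84.3 for cfp-1, 77.3 for utx-1, 65.6 for rbbp-5, 28.4 for wdr-5.1 and 22.7 for dpy-30. The strongest regions of wdr-5.1, dpy-30 and utx-1 lie further inside the gene and were left out here, while that of cfp-1 counts through the 5′ end of an inner transcript.

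**Figure D2:**
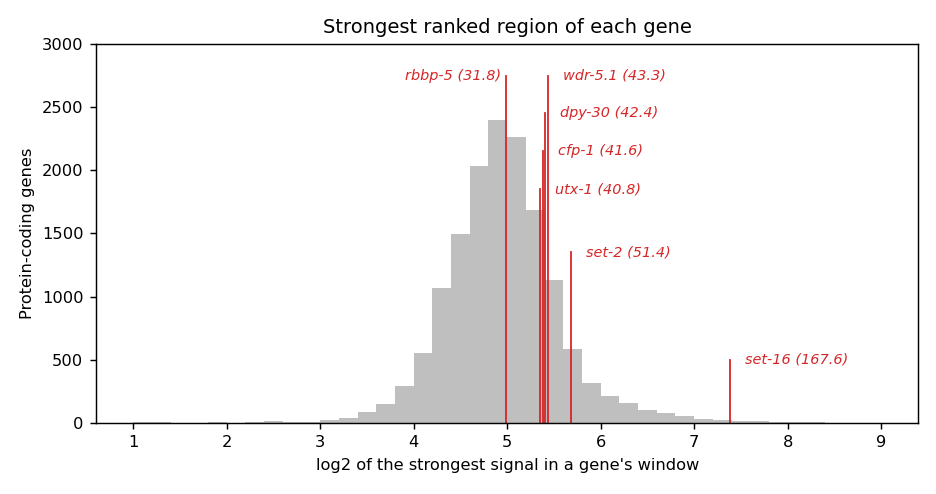
Number of protein-coding genes (vertical axis) by the log2 of the strongest pooled signal in the gene's window (horizontal axis), with red lines at 7 members and their signals in brackets. The set-16 line, at 167.6, stands in the upper tail, set-2 at 51.4 above the bulk, and rbbp-5 at 31.8 near the middle.

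The members differed widely in how many regions they held. The counts were 15 for set-16, 10 for set-2, 8 for utx-1, 4 for wdr-5.1, 3 each for dpy-30 and cfp-1, 2 for rbbp-5 and 0 for ash-2. Per kb of window this came to 1.61 for dpy-30, 1.60 for wdr-5.1, 1.14 for set-2, 1.13 for utx-1, 1.09 for set-16, 0.710 for rbbp-5, 0.421 for cfp-1 and 0 for ash-2. Pooled over the windows, the density was 0.831 regions per kb for the members and 0.638 for all protein-coding genes. The short genes dpy-30 and wdr-5.1 thus had the densest windows, at the 94.5th and 94.4th percentiles of all protein-coding genes, while set-16 was at the 79.4th. Those 2 densities rest on only 3 and 4 regions. A dpy-30 region lies within rnp-1. Of the 4 of wdr-5.1, 3 had the lowest score, and the 4 rest on 3 distinct pairs of replicate peaks.

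As a whole, the member regions had values close to those of the full list. Their median signal was 21.8, against 22.7 for the nuclear ranked regions, and the median score was 59 in both. The lowest score, 27, was given to 20 of the 45 (44.4%), against 44.9% of the nuclear ranked regions, and a score of 100 or more to 13 (28.9%), against 26.7%. Of the 45, 11 were shared with the window of a gene that is no member.

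The replicates were close at most member regions. The median ratio of the higher to the lower replicate signal was 1.22, against 1.37 for the nuclear ranked regions, and 7 regions (15.6%) were more than 2 times apart, against 13.3%. Among the 7, the cfp-1 regions with a ratio of 2.13 rest on the same replicate peaks, as do the set-2 regions with 2.48. Both shares count such regions more than once, so no difference between them is read. The first replicate was higher in 22 regions and the second in 23, while the first was higher in 53.0% of the nuclear ranked regions. These counts also take regions with shared replicate peaks more than once, so no trait of the members is read from them. A member region was counted as found in a replicate's own ranked list if a summit of that list lay inside it. By this rule 21 of the 45 were found in that of replicate 1, 24 in that of replicate 2, 13 in both and 13 in neither. The same shares over all nuclear ranked regions are not given here, so these counts say nothing particular of the members. Matched peaks with a summit just outside were not counted. An example is the set-2 region with the score of 226, whose matched peak, with a signal of 26.3, is in replicate 1's own list. Other matched peaks were absent from a replicate's own list. At the strongest rbbp-5 region the first column held 19.1, while replicate 1's own list held 0 regions in that window. Where a region was in replicate 1's own list, it carried the signal of the first column in 21 of 21 cases, and in replicate 2's list that of the second column in 24 of 24. By gene, the own lists of replicates 1 and 2 held 15 and 9 regions at set-16, 6 and 7 at set-2, 5 and 3 at utx-1, 3 and 4 at cfp-1, 2 and 3 at wdr-5.1, and 2 and 2 at dpy-30.

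**Figure D3:**
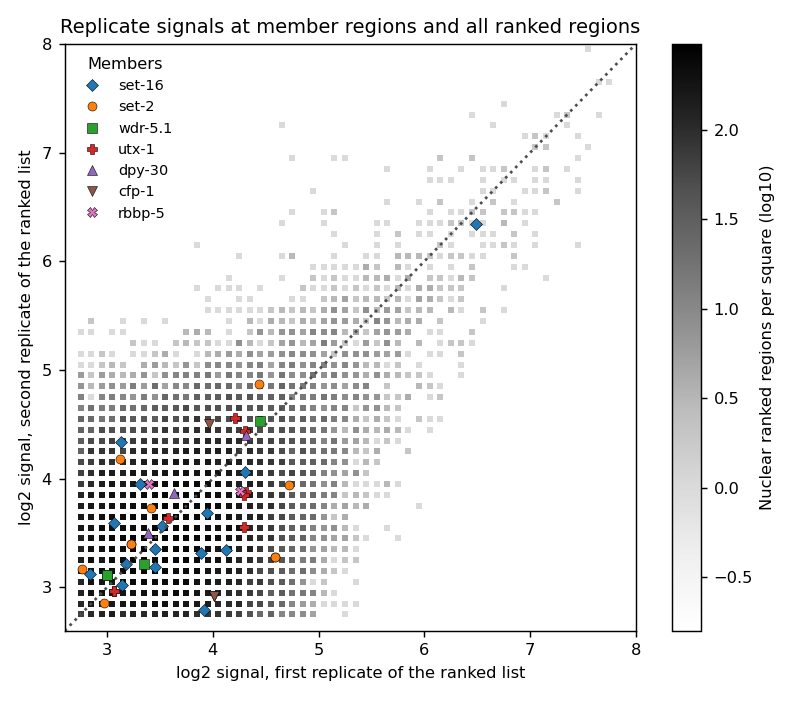
Log2 signal in the second replicate column (vertical axis) against the first (horizontal axis), with member regions as coloured symbols and the density of all nuclear ranked regions in grey (squares, log10 of the number of regions). Dotted is the line of equal signals. The set-16 promoter, at 89.8 and 81.1, stands apart from the other member regions, none of which exceeds 29.2 in either column.

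Most member regions lay in coding sequence. Of the 45 summits, 25 (55.6%) were in coding exons, which make up 40.1% of the windows' bases, and 9 (20.0%) in introns, which make up 38.0%. A further 8 (17.8%) were upstream, against 14.8% of the bases, and 3 (6.67%) in untranslated exons, against 7.16%. Places were read from the member's own annotation, so an upstream summit may lie within a neighbouring gene. The same shares for other genes are not given here, so no trait of the members is read from them. The strongest region was upstream for set-16, set-2 and rbbp-5, in a coding exon for wdr-5.1, dpy-30 and cfp-1, and in an intron for utx-1.

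The base composition under the set-16 summit was above the average of HMG-20 regions. Of the 300 bp around it, 47.3% were G or C, with 22 CG dinucleotides, against 42.8 ± 6.83% and 15.3 ± 5.54 (SD, n = 979) for the nuclear conservative summits. Those values were at the 73.0th percentile for G and C and the 87.2nd for CG. The 300 bp upstream of all 19973 protein-coding 5′ ends averaged 33.9 ± 5.54% and 8.97 CG. In the 100 bp at the summit, G and C made up 60% at set-16 and 56% at set-2, against 49.0 ± 7.84% at the conservative summits. Over 300 bp, set-2 had 36% and 12 CG. In both genes the rise was narrow. The set-16 summit was not the highest point of its profile, which reached 67% at 750 bp upstream of the summit.

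**Figure D4:**
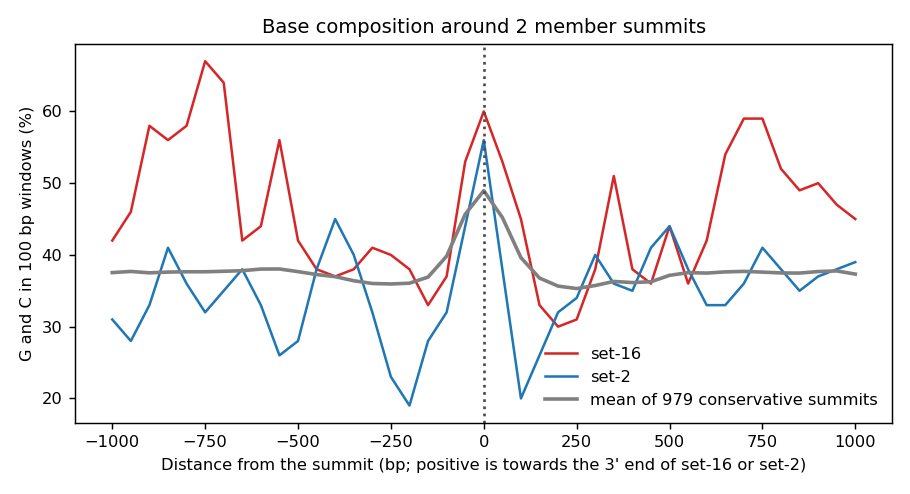
Percentage of G and C in 100 bp windows (vertical axis) by distance from the summit (horizontal axis, bp) for the set-16 and set-2 promoter regions, with the mean of the 979 conservative summits in grey. At the summit set-16 reached 60% and set-2 56%, and the mean 49.0%.

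Across the member regions, G and C in 300 bp ranged from 27% to 58.3% with a median of 43.3%. GAGAGA was found in 8 (17.8%), against 34.2% of the nuclear conservative summits, 19.1% of the ranked ones and 21.6% of upstream windows of the same length. TTTNNCGC was found in 7 (15.6%), against 27.5%, 17.7% and 19.5%. GAGACGCAG was found in 2 (4.44%), the set-16 promoter and the region 429 bp upstream of dpy-30, against 8.68%, 2.37% and 3.11%. The set-16 promoter held 2 copies of GAGACGCAG and 1 of GAGAGA, and the set-2 promoter held 2 overlapping matches of TTTNNCGC and neither of the others.

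Genes with the replicate signals closest to those of set-16 were found among 623 protein-coding genes with a conservative promoter region, by the Euclidean distance of the 2 log2 replicate signals. The closest were hsp-60, which encodes a mitochondrial chaperonin, and its neighbour Y22D7AL.10, which share a region at 92.2 and 79.8 (distance 0.0441). The next were rpl-7A, which encodes a ribosomal protein, and set-21, which encodes a SET domain protein, and which share a region at 87.9 and 75.7 (distance 0.104). Each of these pairs shares 1 region and so entered the comparison as 2 genes at the same distance. How many of the 623 genes share their region is not given here, so the sharing is not read as a likeness to set-16.

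Other genes of histone methylation were described from 33 genes in 4 lists by the same measures. The lists do not hold every SET domain gene, and set-21, named above, is not in them. Of the 8 members 7 had a ranked region and 1 a conservative one, and of these 33 genes 28 had a ranked region and 1 a conservative one, beside 74.6% and 4.25% of all protein-coding genes. At an IDR of 0.05 there were 2 of the 8 members, and 4 of the 33 genes, beside 7.3% of all protein-coding genes. Those 4 were set-4, jmjd-3.1, wdr-5.3 and jmjd-1.2. The genes with 0 ranked regions, like ash-2, were swd-2.2, spr-5, mes-3, jmjd-3.2 and set-1. The gene with a conservative region was set-4 (WBGene00016313; chromosome II, 6329838 to 6331341, minus strand), an H4 lysine 20 methyltransferase, whose region 266 bp upstream had a signal of 109.8, replicate signals of 52.9 and 57.2 (55.1 ± 3.01, SD, n = 2) and a score of 1000, and was in the thresholded list of each replicate. It was thus lower than set-16 in both columns and above all other member regions.

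Among the 8 genes of H3K4 methylation that are associated with or paralogous to the members, 7 had a ranked region and 0 a conservative one. The strongest was wdr-5.3, a paralogue of wdr-5.1, with a score of 720, a pooled signal of 51.1 and replicate signals of 24.9 and 28.2. Of the 4 demethylase genes, 3 had a ranked region and 0 a conservative one, led by rbr-2, an H3K4 demethylase of the KDM5 family, with a score of 517, a pooled signal of 46.5 and replicate signals of 22.7 and 23.8. Of the 11 genes of H3K27 methylation and the Jumonji demethylases, 9 had a ranked region. There jmjd-3.1, an H3K27 demethylase like utx-1, which starts 7809 bp past the end of utx-1 on chromosome X, had a score of 824, a signal of 58.6 and replicate signals of 34.6 and 24.2, just short of the score of 830. It was in the other thresholded list and not in the conservative one. Of the other 10 methyltransferase and SET domain genes in the lists, 9 had a ranked region and 1, set-4, a conservative one. Outside the lists, set-21 has a conservative promoter region, shared with rpl-7A, with a signal of 162.9.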

How the data were processed

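HMG-20 chromatin immunoprecipitation was measured in 2 biological replicates of whole young adults. The deposited lists hold regions on ce11, and which aligner and caller made them is not given in the sources used here. The deposited score is a scaled IDR, the deposited signal is the authors' peak height on a scale not stated, and the deposited −log10 columns are of q-values and of IDR, per the file descriptions and the values. Lists were made for each replicate and from both. Regions were used as deposited, and 0 lay outside the lengths of WBcel235. Genes came from Ensembl release 115 and sequence from the RefSeq copy of WBcel235. Gene windows ran from 1000 bp upstream of any transcript's 5′ end to the gene's 3′ end, a promoter ended 200 bp downstream, and regions were placed by summit. GC content and motifs were counted in 300 bp and 100 bp around the summit.

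The members and lists were chosen with earlier results of these data known, so no test was made. All 8 members were named, with the genes of the other lists that had a conservative summit, the genes that share a member's conservative region, and the 4 genes closest to set-16 in replicate signals. The genes wdr-5.3, rbr-2, jmjd-3.1 and jmjd-1.2, the 5 without a ranked region, and neighbours of other regions were named after their values were seen. The placement of summits was tested on simulated data. Replicate signals are given as mean ± SD over 2 replicates, and the depth behind them is unknown. Other windows, lists and IDR thresholds were tried. Python 3.11.15, NumPy 2.4.6, pandas 2.3.3 and matplotlib 3.10.9 were used.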

Additional observations from a re-analysis of the deposited data

How the results depend on the processing

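Of 57 values recomputed under other settings, 45 stayed within the replicate spread, or within 1.5 times for counts, and 12 moved. For percentiles that spread was the SD of the values obtained with each replicate left out, and for rbbp-5 that of the member medians. The settings with a replicate left out were thus judged by a spread made from their own values. The tally is therefore no measure of how robust the percentiles are. At an IDR of 0.05, 2 members were called, set-16 and set-2, where the conservative list called 1. With promoters alone, 12 member regions remained, against 45 with gene bodies. The median percentile of the members' strongest regions was 81.8 with both replicates and ran from 71.8 to 79.0 with 1 replicate left out, over different members: without replicate 2, rbbp-5 had no region and ash-2 entered at the 94.9th percentile. The other members were then at 99.5 for set-16, 84.5 for set-2, 71.8 for cfp-1, 69.8 for wdr-5.1, 69.5 for utx-1 and 59.9 for dpy-30, which had been at 81.8. Without replicate 1, rbbp-5 was at 37.7, against 54.1 with both, and dpy-30 at 72.9. The medians of the other ranked list and of the reach of 2000 bp, 81.3 and 78.5, also include ash-2. In the 100 bp window G and C under the set-16 summit made up 60%, against 47.3% in 300 bp. The promoter of set-16 was called in every alternative list and window tried. Depth was unknown, so which weak regions were listed may depend on it. No paired analysis was possible because there was 1 group.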

Other observations

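Some neighbouring member regions rest on the same replicate peaks. Of the 45 member regions, 10 (22.2%) form 5 pairs that carry identical replicate signals, against 16.1% of the nuclear ranked regions that share both replicate peaks with another region. At set-2, for example, summits at 5039 and 4838 bp downstream had pooled signals of 35.2 and 2.90, and both carried replicate signals of 24.1 and 9.73. In 8 member regions (17.8%) the pooled signal was below both replicate signals, against 8.49% of the nuclear ranked regions.

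Further upstream of ash-2 than the window reached, summits at 1728 and 1529 bp had pooled signals of 40.0 and 15.8 and share a score of 204, with replicate signals of 15.7 and 23.5. Both summits lie within the divergent gene Y17G7B.20.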
